A study of Sus scrofa with 10 samples.

Results

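Transcript levels of 5 appetite genes of the melanocortin and CART systems, POMC, AGRP, CARTPT, MC3R and MC4R, were compared in the hypothalamus of pigs that differed in growth and fatness. The genes were chosen by symbol, and each symbol matched 1 of the 25009 gene rows of the deposited expression table. The animals were backcross pigs of Iberian and Landrace origin, 5 labelled as high and 5 as low for both growth and fatness. Sex, age and feeding state were not given in the labels used here. For each gene the authors deposited 1 value per group in FPKM, a fragment count scaled for transcript length and library size, with 2 confidence bounds. Values per animal were not analysed here, so the animals of a group could not be compared with each other. No test across animals was possible, and sequencing depth is unknown. The groups are called high pigs and low pigs here, and a range in parentheses runs between the deposited bounds.

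The central melanocortin system links body energy stores to feeding. Neurons of the arcuate nucleus make proopiomelanocortin (POMC), which is cut into melanocortin peptides that restrain feeding, and a neighbouring population makes agouti-related peptide (AGRP), which blocks the same receptors and promotes feeding. Both signals meet at the melanocortin receptors MC3R and MC4R, and loss of MC4R causes obesity in humans and mice. CARTPT encodes the precursor of cocaine- and amphetamine-regulated transcript (CART) peptides, made by many POMC neurons and also by neurons of the lateral hypothalamus. In pigs, variation in the MC4R gene has been associated with growth and fatness. Genotypes were not analysed here.

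On build Sscrofa10.2, POMC (ENSSSCG00000021155) lies on chromosome 3 from 120766301 to 120772980. AGRP (ENSSSCG00000002775) lies on chromosome 6 from 25399704 to 25400751, and CARTPT (ENSSSCG00000016972) on chromosome 16 from 51989808 to 51991845. MC3R (ENSSSCG00000007491) lies on chromosome 17 from 63980062 to 63981142, and MC4R (ENSSSCG00000004904) on chromosome 1 from 178553488 to 178555219. The spans ran from 1048 bases for AGRP to 6680 bases for POMC. Each symbol had 1 row, and 0 other rows overlapped any of these spans. The closest neighbour was 547 bases from AGRP. It is ATP6V0D1, a proton pump subunit, at 53.1 FPKM in high pigs and 45.5 FPKM in low pigs.

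CARTPT and both receptors had the higher value in high pigs, whereas POMC and AGRP had the higher value in low pigs. CARTPT was 1.64 times as high in high pigs, MC3R 1.59 times and MC4R 1.58 times. POMC was 1.31 times and AGRP 1.14 times as high in low pigs. The deposited intervals of both groups overlapped in all 5 genes, so 0 of 5 were separated by the authors' own bounds. By the same rule 70 of 15156 rows, or 0.462%, had intervals that did not overlap, taken over rows with a value above 0 in both groups and a mean of at least 1 FPKM.

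**Figure D1:**
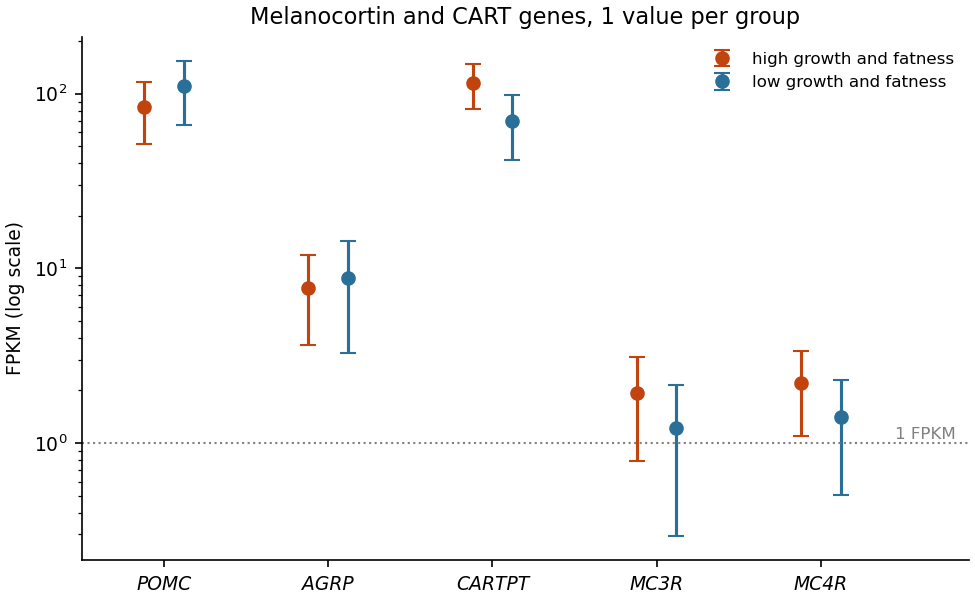
Levels of the 5 genes in FPKM on a log axis, 1 point per group (orange, high growth and fatness; blue, low growth and fatness), with bars from the deposited lower to the deposited upper bound and a dotted line at 1 FPKM. The bars of both groups overlap for every gene, POMC and CARTPT lie between 70.2 and 115 FPKM, and both receptors lie between 1.22 and 2.22 FPKM.

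POMC, the precursor of the melanocortin peptides, was at 84.0 FPKM (51.3 to 117) in high pigs and 110 FPKM (65.9 to 155) in low pigs. The value of low pigs was higher by 31.3%, and the intervals shared the range from 65.9 to 117 FPKM. The bounds allow a low-to-high ratio anywhere from 0.565 to 3.02, so neither direction is fixed by them. POMC was among the abundant transcripts, above 95.3% of rows in high pigs and above 95.8% in low pigs. Its difference in log2(FPKM + 1), high minus low, was -0.39.

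That difference lay near those of other abundant transcripts. Of 1319 rows whose mean was at least 50 FPKM, 183 had the higher value in high pigs, and the median log2 difference of these rows was -0.24. In 301 of the 1319 rows, 22.8%, the high-to-low ratio was as low as that of POMC or lower. The limit of 50 FPKM was chosen after the values were seen.

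AGRP, the natural antagonist of the melanocortin receptors, was at 7.74 FPKM (3.62 to 11.9) in high pigs and 8.81 FPKM (3.25 to 14.4) in low pigs. The interval of high pigs lay wholly inside that of low pigs. The log2 difference was -0.17, against a median of -0.10 over all 15156 rows, and 38.5% of rows had a high-to-low ratio as low or lower. Its level was close to the middle of the rows, above 52.6% of them in high pigs and 54.6% in low pigs.

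CARTPT was at 115 FPKM (81.6 to 149) in high pigs and 70.2 FPKM (42.0 to 98.4) in low pigs. Each group's value lay outside the interval of the other group, and the intervals shared only the range from 81.6 to 98.4 FPKM. The bounds allow a high-to-low ratio from 0.830 to 3.54. Of all rows 1.77% had a high-to-low ratio at least as large, as had 22 of the 1319 rows at 50 FPKM or more. The log2 difference of 0.71 was above that of 99.2% of rows, and its direction was opposite to that of POMC.

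The receptors were the least abundant of the 5 genes. MC3R was at 1.95 FPKM (0.788 to 3.10) in high pigs and 1.22 FPKM (0.292 to 2.15) in low pigs. MC4R was at 2.22 FPKM (1.09 to 3.34) and 1.41 FPKM (0.504 to 2.31). None of these 4 values was below 1 FPKM, the level under which a row was to be reported as low, although 3 of the 4 lower bounds were.

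In MC3R, as in MC4R, the value of each group lay inside the interval of the other. The bounds allow a high-to-low ratio from 0.367 to 10.6 for MC3R and from 0.473 to 6.63 for MC4R. The log2 differences were 0.41 and 0.42, and the pseudocount of 1 reduces them at this level. With a pseudocount of 0.01 they were 0.67 and 0.65.

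The share of rows this far apart can be given for the whole table. A high-to-low FPKM ratio of at least 1.5 was found in 3 of the 5 genes, CARTPT, MC3R and MC4R, and in 421 of 15156 rows, or 2.78%. A low-to-high ratio of at least 1.5 was found in 0 of 5 and in 6.44% of rows. At a ratio of at least 2 in either direction the counts were 0 of 5 and 450 rows, or 2.97%. Among the 5617 rows with a mean from 1 to under 5 FPKM, where the receptors lie, 283 rows or 5.04% reached a high-to-low ratio of 1.5. Of all rows 32.0% had the higher value in high pigs, against 3 of the 5 genes. That share fell with level. It was 42.9% for a mean from 1 to under 5 FPKM, 27.6% from 5 to under 50 FPKM and 13.9% at 50 FPKM or more. The 5 genes had a median log2 difference of 0.41, set by MC3R, against -0.10 over all rows. These are single values per group, and the 5 genes are not replicates of a condition.

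**Figure D2:**
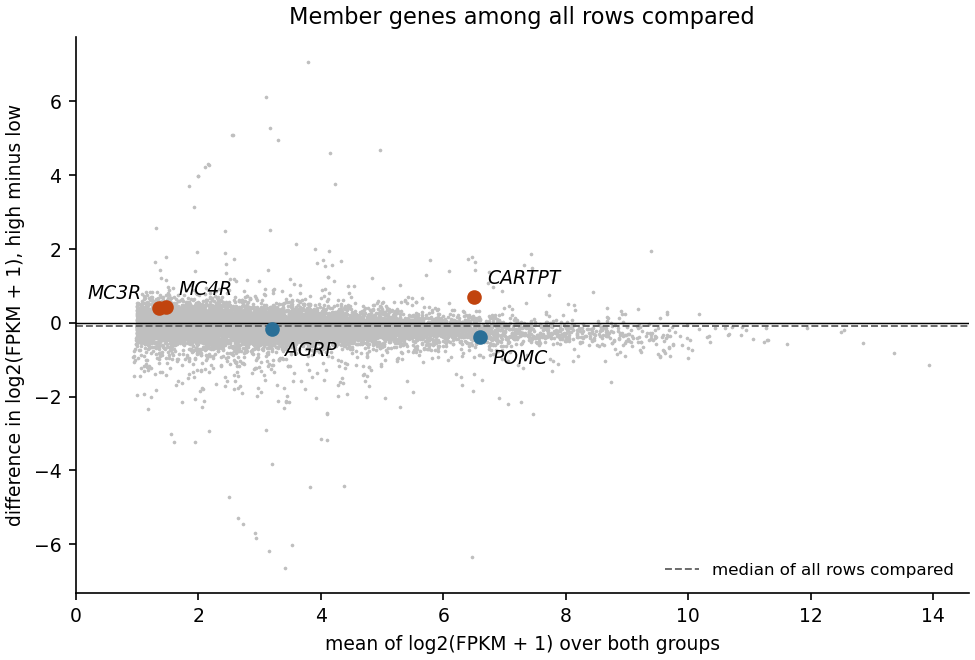
Difference in log2(FPKM + 1), high minus low, against the mean of log2(FPKM + 1) over both groups, for 15156 rows (grey) and the 5 genes (orange above 0, blue below 0); the dashed line is the median of all rows, -0.10. CARTPT, at 0.71, stands above most rows of its level, MC3R and MC4R lie at the upper edge of the dense band, and POMC and AGRP lie within it.

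Precision was lower for the 3 less abundant genes. In high pigs the bounds lay 29.1% of the value above and below it for CARTPT, 39.0% for POMC, 50.8% for MC4R, 53.2% for AGRP and 59.5% for MC3R. In low pigs they lay 40.2% away for CARTPT, 40.3% for POMC, 63.1% for AGRP, 64.1% for MC4R and 76.1% for MC3R. The medians over all rows were 39.3% in high pigs and 45.0% in low pigs. For either receptor these bounds did not separate the groups, as the value of each group lay inside the interval of the other.

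In order of level, high pigs ran CARTPT, POMC, AGRP, MC4R, MC3R and low pigs POMC, CARTPT, AGRP, MC4R, MC3R. The intervals of CARTPT and POMC overlapped within each group, as did those of MC4R and MC3R. The interval of AGRP lay apart from that of POMC and that of CARTPT in both groups. Against MC4R it lay apart in both groups too, with lower bounds for AGRP of 3.62 and 3.25 FPKM above upper bounds for MC4R of 3.34 and 2.31 FPKM.

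Ratios between genes within a group do not depend on any scaling factor between the groups. CARTPT was 1.37 times the level of POMC in high pigs (0.699 to 2.90 within the bounds) and 0.636 times in low pigs (0.271 to 1.49). The ratio thus differed 2.15-fold between the groups, the largest difference of the 6 ratios computed, and the ranges overlapped. The balance of the agonist precursor over the antagonist, POMC over AGRP, was 10.9 in high pigs (4.32 to 32.2) and 12.5 in low pigs (4.59 to 47.6). CARTPT over AGRP was 14.9 (6.89 to 41.0) and 7.97 (2.92 to 30.2).

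Both ratios of a ligand gene to MC4R had the lower value in high pigs, which follows from the directions given above for POMC, AGRP and MC4R. POMC over MC4R was 37.9 in high pigs (15.3 to 107) and 78.4 in low pigs (28.6 to 307), and AGRP over MC4R was 3.49 (1.08 to 10.9) and 6.26 (1.41 to 28.5). MC4R over MC3R was 1.14 in high pigs (0.352 to 4.24) and 1.15 in low pigs (0.235 to 7.91). In all 6 pairs the ranges of both groups overlapped.

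**Figure D3:**
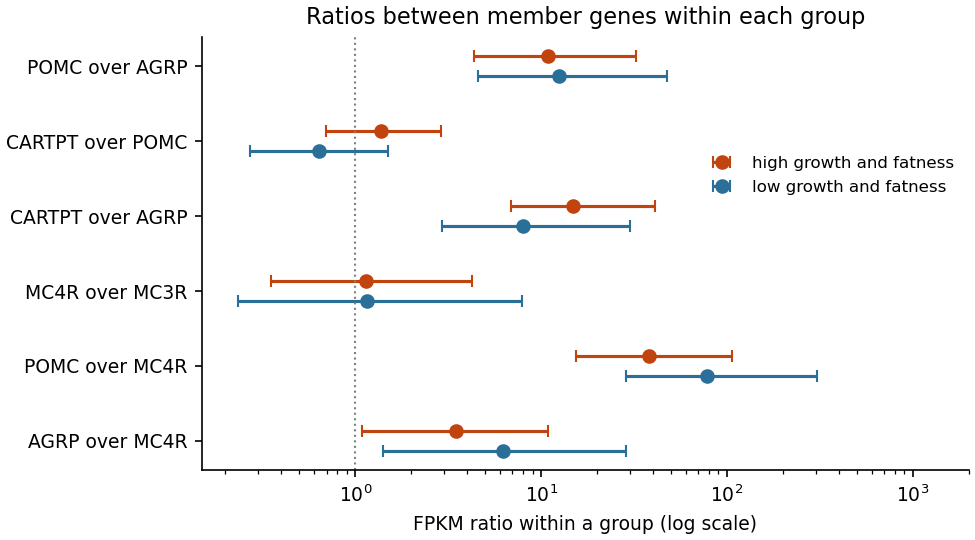
FPKM ratios between pairs of the 5 genes within each group on a log axis (orange, high; blue, low), with bars from the lowest to the highest ratio that the deposited bounds allow and a dotted line at equal levels. MC4R over MC3R is nearly the same in both groups, at 1.14 and 1.15, CARTPT over POMC lies on opposite sides of 1, at 1.37 and 0.636, and all pairs of bars overlap.

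Genes that carry or modify the melanocortin signal were described from a list of 12 receptors and modulators, which includes MC3R and MC4R themselves. In the table were 11 of them, and 7 reached a mean of 1 FPKM, again with MC3R and MC4R. Of these 7, 5 had the higher value in high pigs, MC3R and MC4R among them, and 2 in low pigs. The median log2 difference was 0.01. Only MC3R and MC4R reached a ratio of 1.5, and 0 had intervals apart. MRAP2, an accessory protein of melanocortin receptors, was at 6.95 FPKM in high pigs and 6.89 FPKM in low pigs. ATRN, attractin, which in mice is needed for agouti signalling, was at 18.6 and 18.5 FPKM. Its relative ATRNL1 was at 3.61 and 3.11 FPKM.

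SDC3, a cell surface proteoglycan that in mice enhances the action of AGRP, was at 45.3 FPKM in high pigs and 52.7 FPKM in low pigs. MGRN1, a ubiquitin ligase known from the mahoganoid coat colour mutant of mice, was at 17.5 and 19.0 FPKM. The receptors known from other tissues were low in both groups. MC1R, the pigment cell receptor, was at 0.344 and 0.319 FPKM, MC2R, the adrenal ACTH receptor, at 0.0321 and 0.0244 FPKM, and MC5R, known from exocrine glands, at 0.156 and 0.0532 FPKM. ASIP, the agouti antagonist of the skin, was also low, at 0.188 and 0.262 FPKM.

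The enzymes that cut and amidate the POMC and CART precursors had nearly equal values in both groups. PCSK1, the first convertase to act on POMC, was at 34.2 FPKM in high pigs and 33.6 FPKM in low pigs, and PCSK2, which cuts its products further, at 38.5 and 37.7 FPKM. SCG5, the chaperone of PCSK2, was at 181 and 180 FPKM. The carboxypeptidase CPE was at 648 and 661 FPKM, and the amidating enzyme PAM at 143 and 145 FPKM. PCSK1N, an inhibitor of PCSK1, was at 19.2 and 14.5 FPKM, 1.33 times as high in high pigs.

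PRCP, a carboxypeptidase that inactivates alpha-MSH in mice, was the exception in this list of 7. It was at 11.8 FPKM (7.91 to 15.8) in high pigs and 21.4 FPKM (13.5 to 29.3) in low pigs, 1.80 times as high in low pigs. The intervals overlapped between 13.5 and 15.8 FPKM. Of the 7 genes, 4 were higher in high pigs and 3 in low pigs, the median log2 difference was 0.01, and 0 had intervals apart.

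Of 12 transcription and signalling factors of arcuate neurons 9 were in the table and 7 reached a mean of 1 FPKM. Among these 5 had the higher value in high pigs, and the median log2 difference was 0.12. ISL1, a factor that in mice is needed for POMC expression, was at 4.61 and 3.30 FPKM, and BSX, needed for AGRP expression in mice, at 1.74 and 1.20 FPKM. SOCS3, an inhibitor of leptin signalling, was the 1 gene of the list past a ratio of 1.5, at 1.12 FPKM (0.183 to 2.06) in high pigs and 3.17 FPKM (0.777 to 5.57) in low pigs, with overlapping intervals. It was 2.83 times as high in low pigs. STAT3, which carries the leptin signal to the nucleus, was at 38.3 and 36.1 FPKM.

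Of 9 receptors and signalling genes through which hormones and serotonin reach arcuate neurons, 6 of the 8 in the table reached a mean of 1 FPKM. Of these 4 had the higher value in high pigs, the median log2 difference was 0.19, and 0 reached a ratio of 1.5. HTR2C, a serotonin receptor carried by POMC neurons, was at 14.7 and 10.0 FPKM, and the insulin receptor INSR at 4.84 and 3.43 FPKM. Higher in low pigs were PTPN1, a phosphatase that restrains leptin and insulin signalling, at 7.03 and 8.10 FPKM, and the adaptor SH2B1, at 8.74 and 9.35 FPKM. LEPR, the leptin receptor, did not reach the mean of 1 FPKM, at 0.597 FPKM (0.277 to 0.918) in high pigs and 1.20 FPKM (0.481 to 1.91) in low pigs, with overlapping intervals and the higher value in low pigs.

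Among 8 genes of MC4R signalling and its targets, 7 reached a mean of 1 FPKM. Of these 2 had the higher value in high pigs and 5 in low pigs, with a median log2 difference of -0.10, equal to that of all rows. BDNF, a neurotrophin downstream of MC4R, was at 9.07 and 11.0 FPKM, and GNAS, the G protein subunit through which MC4R acts, at 1826 and 1957 FPKM in the more abundant of its 2 rows. KCNJ13, a potassium channel to which MC4R couples in mice, was at 2.04 FPKM (0.768 to 3.32) in high pigs and 4.16 FPKM (1.73 to 6.58) in low pigs. It was the 1 gene of this list past a ratio of 1.5, and its intervals overlapped.

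**Figure D4:**
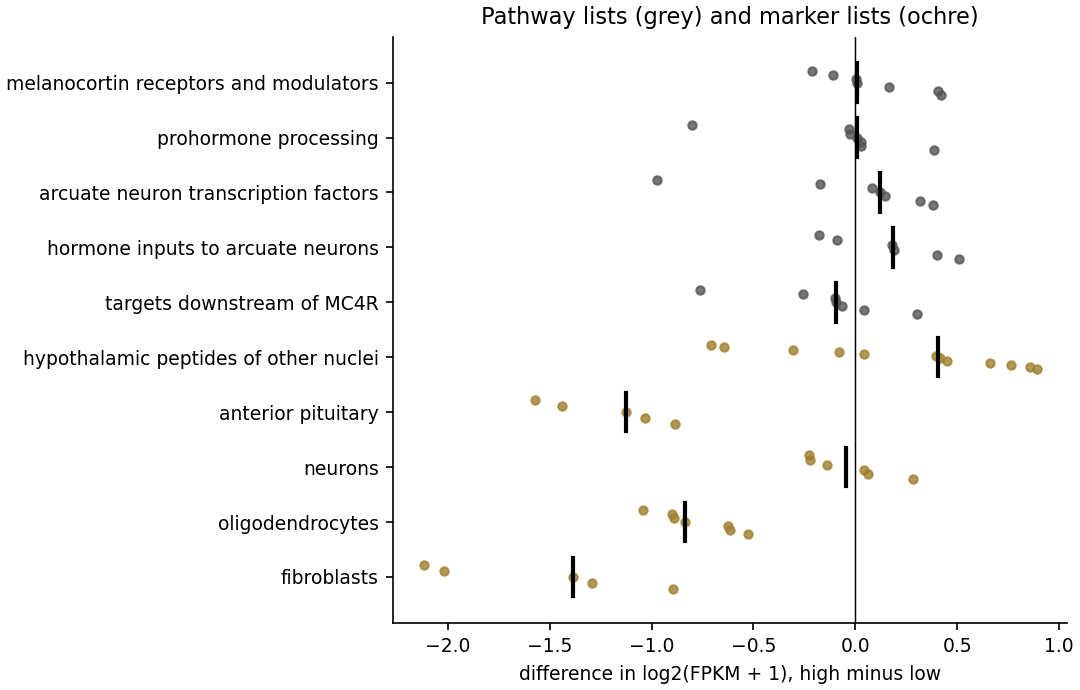
Difference in log2(FPKM + 1), high minus low, of every gene with a mean of at least 1 FPKM in 5 pathway lists (grey) and 5 marker lists (ochre); each point is 1 gene and each black bar the median of its list. The pathway medians lie between -0.10 and 0.19, while those of anterior pituitary, oligodendrocyte and fibroblast markers lie at -1.12, -0.83 and -1.39.

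The labelled tissue was checked on its peptides. All 12 hypothalamic peptides listed reached a mean of 1 FPKM, although the lower bound was 0 for VIP in both groups and for TRH in low pigs. Of the 12 peptides, 8 had the higher value in high pigs and 4 in low pigs, against 32.0% of all rows with the higher value in high pigs. For rows with a mean from 1 to under 5 FPKM that share was 42.9%, and at 50 FPKM or more it was 13.9%. Their median log2 difference was 0.40. The peptide genes among the 5 genes went both ways, CARTPT at 0.71, POMC at -0.39 and AGRP at -0.17. A ratio of 1.5 was reached by 4 of the 12 peptides toward high pigs, HCRT (2.33 times), KISS1 (2.27 times), PMCH (1.82 times) and OXT (1.60 times). It was reached by 2 toward low pigs, NPY and VIP, with 0 intervals apart. The shares of all rows were 2.78% toward high pigs and 6.44% toward low pigs. HCRT was at 4.16 and 1.78 FPKM and KISS1 at 2.74 and 1.21 FPKM. Of rows with a mean from 1 to under 5 FPKM, 5.04% reached this ratio toward high pigs. PMCH, made by lateral hypothalamic neurons that in rodents also make CART, was at 167 FPKM (120 to 215) in high pigs and 91.8 FPKM (51.5 to 132) in low pigs. NPY, made by the same arcuate neurons as AGRP, was at 7.25 FPKM (3.61 to 10.9) and 11.9 FPKM (5.16 to 18.6). CARTPT and PMCH had their higher value in high pigs, and AGRP and NPY in low pigs. The direction of AGRP and NPY was that of 10299 of 15156 rows. A high-to-low ratio as low as that of AGRP or lower was found in 38.5% of rows. Any link between the genes of these pairs was not tested. In tissue of mixed cells, fewer cells of a type and less RNA per cell cannot be told apart.

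POMC is also the product of pituitary corticotrophs and melanotrophs, and pituitary transcripts were present. Of 14 anterior pituitary markers, POMC not counted, 10 were in the table, with a summed level of 461 FPKM in high pigs and 985 FPKM in low pigs. The higher value was in low pigs for 8 of the 10, and for 10299 of the 15156 rows compared. GH1, growth hormone, was at 157 FPKM (90.3 to 224) in high pigs and 344 FPKM (71.0 to 618) in low pigs. PRL, prolactin, was at 279 FPKM (174 to 384) and 570 FPKM (102 to 1039). For both genes, which make up most of the summed level, the interval of high pigs lay wholly inside that of low pigs. All 5 markers with a mean of at least 1 FPKM were past a low-to-high ratio of 1.5, against 6.44% of all rows. Of these 5 markers 0 had intervals apart. TBX19, the factor that marks POMC-producing pituitary cells, was at 0.917 and 0.874 FPKM, and 0 of the 10 markers were listed at 0. The part of pituitary RNA in the POMC value was not tested.

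Oligodendrocyte and fibroblast markers also had higher values in low pigs, in 7 of 7 and 6 of 6 genes. This direction alone is common, as 10299 of the 15156 rows compared had it. At 50 FPKM or more, the level of the oligodendrocyte markers, only 183 of 1319 rows were higher in high pigs. A low-to-high ratio of 1.5 was reached by 6 of 7 oligodendrocyte markers and 5 of 5 fibroblast markers compared, against 6.44% of all rows. Intervals lay apart in 4 of the 5 fibroblast markers with a mean of at least 1 FPKM, the collagens COL1A1, COL1A2 and COL3A1 and the proteoglycan DCN, against 0.462% of all rows, and in 0 of 7 oligodendrocyte markers. The summed levels were 2794 FPKM in high pigs and 4341 FPKM in low pigs for oligodendrocytes, and 41.9 and 142 FPKM for fibroblasts. The 6 neuron markers had summed levels of 1579 and 1617 FPKM, 3 higher in each group, with a median log2 difference of -0.05. The part of these cell types in the differences of the 5 genes was not tested.

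For each gene, the 3 other named genes with the most similar pair of group values were taken, by distance over the 2 values of log2(FPKM + 1). For MC4R they were NOS1AP (2.26 and 1.42 FPKM), KIAA1257 and GLRA3, and for MC3R they were DNAH10 (1.96 and 1.18 FPKM), ABCC10 and NGFR. For AGRP they were SLC20A2 (7.77 and 8.85 FPKM), MKKS and PRKAA1, and for POMC they were APOA1 (81.0 and 110 FPKM), BAALC and a row named U6. These distances were at most 0.055. For CARTPT the closest genes were farther away, at distances of 0.28 for MT1A (102 and 82.4 FPKM), 0.30 for SLC14A1 and 0.37 for CLTC. With 2 values per gene this likeness describes level and direction only.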

How the data were processed

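RNA of 10 hypothalami, 5 per group, was sequenced as paired-end libraries on an Illumina HiSeq instrument, per the labels' protocols. Tools named in the submitters' processing notes are TopHat2 2.0.5 with Bowtie2, Cufflinks 2.0.2, CASAVA, Trim Galore and FastQC, and the genome build is Sscrofa10.2. The authors deposited FPKM values, 1 per gene row and group, together with confidence bounds and an estimate status, per the file headers. The confidence level and the way animals were combined are not given in the sources used here. Mapping was not stated to use strand.

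Left out were 58 rows whose status was not OK in at least 1 group. Rows compared had values above 0 in both groups and a mean of at least 1 FPKM (15156). Differences are log2(FPKM + 1), high minus low, on a scale that understates low genes. The limma test planned for values per animal could not be run. A gene was called by intervals that did not overlap or by an FPKM ratio of at least 1.5; neither is a test. Ranges of ratios divide opposite bounds. Starts count from 0 in the file, since end minus start was a multiple of 3 in 148 of 156 short olfactory receptor rows, and are printed counted from 1.

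Of 95 list genes 83 were found, 4 of them by Ensembl ID and 1 by a RefSeq synonym; for a symbol with several rows the most abundant was used. The genes, lists and rules were chosen with earlier results of these data known. Named genes are the 5 genes, the first 2 pathway lists, other pathway genes past a rule, and nearest genes. ISL1, BSX, STAT3, HTR2C, INSR, PTPN1, SH2B1, BDNF, GNAS, LEPR, marker genes and ATP6V0D1 were named after their values were seen. Python 3.11.15, pandas 2.3.3 and numpy 2.4.6 were used, and the functions were tested on simulated data.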

Additional observations from a re-analysis of the deposited data

How the results depend on the processing

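The log2 differences of all 5 genes kept their direction after median-of-ratios, upper-quartile and quantile scaling. Pseudocounts of 0.1 and 0.01 were also used, which can change the size of a difference but not its direction. Over all these settings the log2 differences ran from -0.39 to -0.15 for POMC and -0.19 to -0.04 for AGRP. They ran from 0.71 to 0.92 for CARTPT, 0.41 to 0.67 for MC3R and 0.42 to 0.65 for MC4R. Median-of-ratios scaling moved the share of all rows with the higher value in the high group from 32.0% to 50%, and raised the rows past a high-to-low ratio of 1.5 from 421 to 660. The count of the 5 genes with intervals apart stayed 0 after median-of-ratios and quantile scaling, without a filter and with one at 5 FPKM; upper-quartile scaling was run for the differences and not for counts.

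The 3 genes past a ratio of 1.5 became 1 with the filter at 5 FPKM, where the receptors are not compared, and 0 at a ratio of 2. Among receptors and modulators the 2 genes became 0 under either setting, and 3 without a filter, where MC5R is added. The median of that list became -0.053 at a mean of at least 5 FPKM. The processing list went from 1 gene to 0 at a ratio of 2. The arcuate factor list went from 1 gene to 3 after median-of-ratios and 2 after quantile scaling, and to 0 at a mean of at least 5 FPKM, with a median of -0.046 there. A ratio of 2 gave 1 gene in that list and 1 among the MC4R targets, against 0 by intervals. Hormone inputs went from 0 genes to 2 after either scaling and to 1 (LEPR) without a filter, and the median to -0.088 at a mean of at least 5 FPKM. MC4R targets went from 1 gene to 0 at a mean of at least 5 FPKM, and the median turned to 0.0197 after median-of-ratios and 0.12 after quantile scaling. Fewer genes pass the stricter filter; the cause of the other changes was not tested.

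No paired analysis was possible because the expression table used here holds group values, and no animal was left out in turn. Summing rows of a symbol was not run, as each of the 5 genes has 1 row. Depth is unknown.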
